A study of Arabidopsis thaliana with 24 samples.

Results

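The jasmonate genes described here are 46 of the 33612 genes in the deposited count table. They were chosen by identifier as known genes of the hormone's synthesis (13 genes), conjugation and methylation (2), turnover (9), perception and transcription (4), repression (13) and output (5). The choice was made with earlier results of these data known, so the counts of members set beside all genes below are descriptive. Of the 46, 43 had enough counts to be tested. The other 3, DAD1, AT3G11180 and AT3G22275, are given by their counts.

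Messenger RNA was sequenced from whole Arabidopsis thaliana seedlings aged 9 days, with 3 biological replicates for each of 4 genotypes. The libraries are labelled pklpif4 (pkl-1pif4 in the genotype field), pkl (pkl-1), pif4 and WT, the wild type. PKL is a CHD3-type chromatin remodeller, and PIF4 is a bHLH transcription factor of shoot elongation in warmth, which phytochrome in its light-activated form restrains. The sources used here give neither the pif4 allele nor the crossing history of the mutant lines. By the labels all 12 libraries came from seedlings in continuous white light, and their names carry the number 28. Tables named for red light held the same values, so the files do not tell whether the counts come from white-light or red-light seedlings. The comparisons ask how the jasmonate pathway differs in each mutant and whether the effect of pkl depends on pif4.

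Jasmonate is made from linolenic acid. In chloroplasts a lipoxygenase (LOX), allene oxide synthase (AOS) and allene oxide cyclase (AOC) make the precursor OPDA, and in peroxisomes the reductase OPR3, the ligase OPCL1 and the oxidase ACX1 turn it into jasmonic acid. JAR1 joins jasmonic acid to isoleucine, and this conjugate brings JAZ repressors to the receptor COI1 for destruction, which frees MYC2, MYC3 and MYC4 to switch on their targets, JAZ genes among them. The signal is ended by CYP94 oxidases, amidohydrolases such as IAR3 and ILL6, oxygenases of the JOX group that hydroxylate jasmonic acid, and the sulfotransferase ST2A.

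Promoter windows are shown for 6 members whose transcript levels followed different patterns among the genotypes. LOX2, AT5G05600 and JAZ10 hold the letters CACATG, JAZ3 holds CACGTG, and AT2G38240 and NATA1, the members with the deepest falls, hold neither. Both strings are known binding elements of bHLH factors, MYC2 and PIF proteins among them. Each window runs 5′ to 3′ on the gene's strand from 250 bases before to 50 bases after the gene start in RefSeq (assembly TAIR10.1), and capitals mark the string on either strand (CATGTG is CACATG on the other strand). The windows are LOX2 at chr3:16524995-16525294 (plus strand), AT5G05600 at chr5:1671820-1672119 (plus), JAZ10 at chr5:4218536-4218835 (plus), JAZ3 at chr3:6119457-6119756 (plus), AT2G38240 at chr2:16014942-16015241 (minus) and NATA1 at chr2:16297860-16298159 (plus).
LOX2: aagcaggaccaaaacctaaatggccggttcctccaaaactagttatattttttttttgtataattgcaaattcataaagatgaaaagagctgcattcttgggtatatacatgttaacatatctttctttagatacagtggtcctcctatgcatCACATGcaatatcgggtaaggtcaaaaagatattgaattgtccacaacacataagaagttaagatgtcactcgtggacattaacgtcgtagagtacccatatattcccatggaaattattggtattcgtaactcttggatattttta
AT5G05600: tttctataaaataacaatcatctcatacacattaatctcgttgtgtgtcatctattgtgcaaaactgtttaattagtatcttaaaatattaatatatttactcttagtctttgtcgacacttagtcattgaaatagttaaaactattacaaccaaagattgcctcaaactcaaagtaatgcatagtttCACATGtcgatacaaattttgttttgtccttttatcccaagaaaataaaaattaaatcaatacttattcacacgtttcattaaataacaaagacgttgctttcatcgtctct
JAZ10: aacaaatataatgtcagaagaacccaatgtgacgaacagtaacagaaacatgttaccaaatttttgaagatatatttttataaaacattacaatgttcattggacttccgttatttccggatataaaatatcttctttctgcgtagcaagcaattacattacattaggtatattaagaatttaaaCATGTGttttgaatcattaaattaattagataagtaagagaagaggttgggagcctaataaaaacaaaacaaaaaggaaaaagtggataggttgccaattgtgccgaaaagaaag
JAZ3: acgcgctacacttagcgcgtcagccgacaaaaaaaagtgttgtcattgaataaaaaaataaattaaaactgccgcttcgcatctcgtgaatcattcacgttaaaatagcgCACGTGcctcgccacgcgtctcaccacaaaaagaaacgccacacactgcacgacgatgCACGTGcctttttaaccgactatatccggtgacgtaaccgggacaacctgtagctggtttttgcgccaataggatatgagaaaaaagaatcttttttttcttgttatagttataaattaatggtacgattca
AT2G38240: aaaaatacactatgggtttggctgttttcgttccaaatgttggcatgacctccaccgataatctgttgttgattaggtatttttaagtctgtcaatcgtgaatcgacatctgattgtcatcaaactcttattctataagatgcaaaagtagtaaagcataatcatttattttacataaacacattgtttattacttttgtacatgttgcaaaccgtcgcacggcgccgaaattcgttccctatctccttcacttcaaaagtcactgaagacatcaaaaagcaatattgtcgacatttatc
NATA1: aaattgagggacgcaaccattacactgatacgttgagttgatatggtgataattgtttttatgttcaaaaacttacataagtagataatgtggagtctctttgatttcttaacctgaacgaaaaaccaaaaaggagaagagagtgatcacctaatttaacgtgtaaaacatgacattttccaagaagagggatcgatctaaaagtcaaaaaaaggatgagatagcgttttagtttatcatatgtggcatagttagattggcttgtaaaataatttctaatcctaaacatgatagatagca

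The string CACATG begins 97 bases before the start of LOX2, 62 bases before that of AT5G05600 and 65 bases before that of JAZ10. JAZ3 holds CACGTG in 2 copies, the nearer one 82 bases before the start. Of the 46 members, 8 hold CACGTG (17.4%), against 7.68% of 27443 windows of the same length over the protein-coding genes of the nuclear chromosomes. They are AOS, ACX1, AT3G11180, JAZ2, JAZ3, JAZ7, JAZ8 and AT3G22275, so 5 of the 13 JAZ genes are among them. CACATG was found in 9 members (19.6%), against 12.9% of all windows. These are LOX2, LOX3, AOC4, JAR1, CYP94C1, AT5G05600, JAZ9, JAZ10 and TAT3. One or the other string was found in 17 members (37.0%), against 19.3% of all windows, and in no window of the MYC genes, COI1, VSP1, VSP2 or CORI3. These matches describe letters only and depend on the RefSeq gene starts. Only 1 of the 46 members has the same start and end there as in the deposited counts. For every gene whose window is shown, the deposited start lies beyond the window, as for LOX2 at 16525410. Windows set on the deposited starts could gain or lose strings, which was not tested.

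Total counts per library were 38675068 to 48991932 in pklpif4, 41220985 to 52980805 in pkl, 40168802 to 47237160 in pif4 and 37762216 to 56492669 in WT. PIF4 transcript was higher, not lower, in the libraries labelled pif4 (log2 change against WT 0.79 ± 0.03, SE) and pklpif4 (0.56 ± 0.03), and lower in pkl (-0.61 ± 0.03). PKL transcript differed from WT by 0.10 ± 0.04 in the pklpif4-labelled libraries (adjusted p = 0.0121) and 0.08 ± 0.04 in pkl (adjusted p = 0.0547). A count does not show whether a mutant transcript works, so these libraries are called pif4-labelled and pklpif4-labelled below, and every direction drawn from them rests on the labels.

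Across the pathway, transcripts were mostly higher in pkl and mostly lower in the other mutants. In the pklpif4-labelled libraries 10 of the 43 tested members rose and 26 fell against WT, where 54.8% of all 22130 tested genes were called (27.2% higher and 27.7% lower) at an adjusted p under 0.05. In pkl 28 members rose and 8 fell, where 53.6% of all genes were called (27.1% higher, 26.5% lower). In the pif4-labelled libraries 7 rose and 26 fell, where 32.5% of all genes were called (16.2% in each direction). The median log2 change of the 43 members was -0.38 in the pklpif4-labelled libraries, 0.31 in pkl and -0.44 in the pif4-labelled ones, while that of all tested genes was between -0.0018 and 0.0006. These 3 comparisons share the WT libraries. In RNA from whole seedlings, fewer cells of a type and less RNA per cell cannot be told apart.

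Large changes were mostly falls in both groups with the pif4 label, while in pkl they went both ways. In the pklpif4-labelled libraries 3 members rose and 15 fell at least 2-fold, against 8.25% and 4.66% of all tested genes. In pkl 7 rose and 4 fell at least 2-fold, against 7.96% and 2.93% of all genes (1762 and 649 genes). Large rises thus outnumbered large falls in pkl among all genes too. In the pif4-labelled libraries 1 rose and 14 fell at least 2-fold, against 3.88% and 2.33% of all genes. The summed level of all 46 members (not per length) was 982.4 to 999.5 CPM (counts scaled to equal library size with TMM factors) in the pklpif4-labelled libraries, 1850 to 1890 in pkl, 871.7 to 881.9 in the pif4-labelled libraries and 1231 to 1249 in WT, with no overlap between any of the groups. This sum is weighted to the abundant genes. LOX2 averaged 388 CPM in pkl and 132 in WT, and ACX1 321 and 188.

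**Figure D1:**
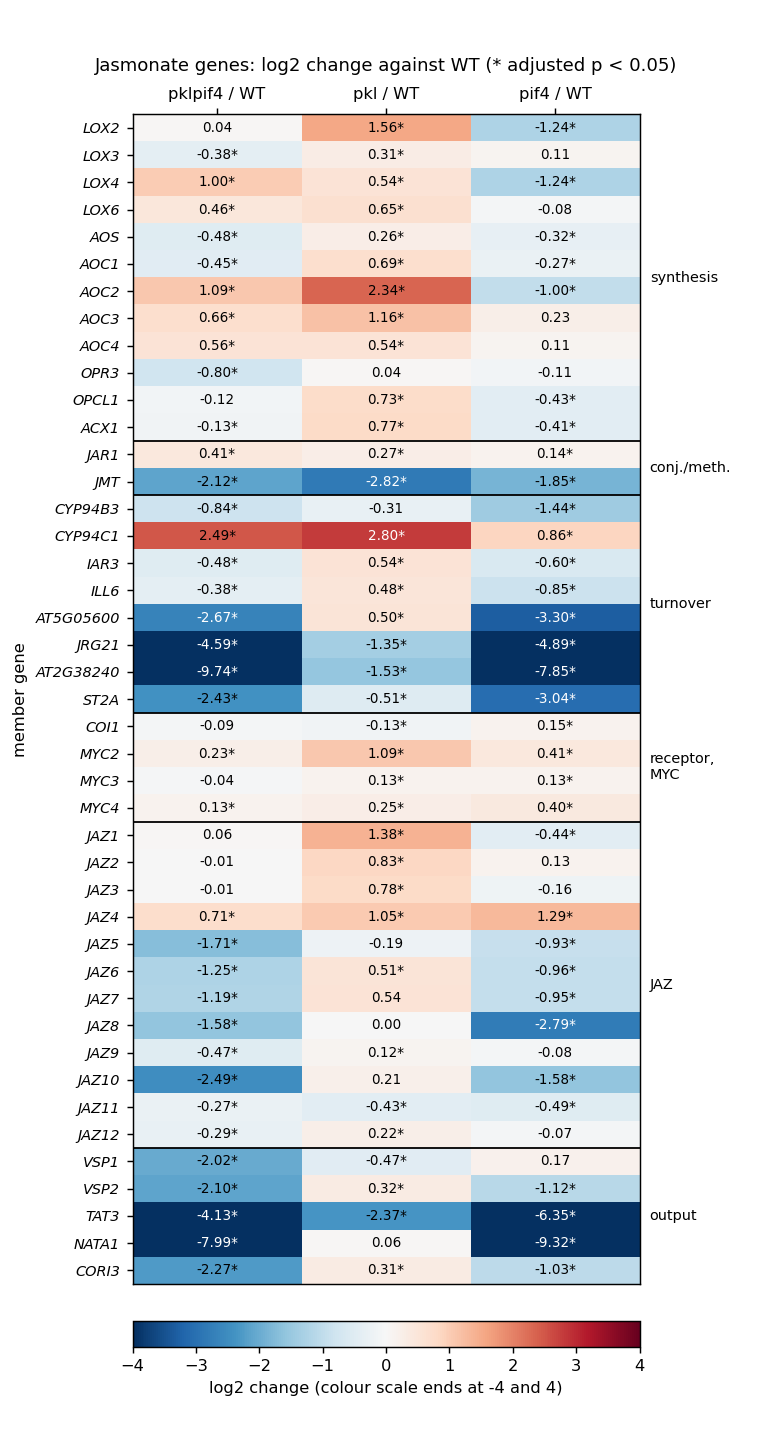
Log2 change of each of the 43 tested jasmonate genes (rows, by step) against WT in the pklpif4-labelled, pkl and pif4-labelled libraries (columns). Red is higher and blue lower than WT, the printed value is the fitted change and an asterisk marks an adjusted p under 0.05; fitted values of TAT3, NATA1 and AT2G38240 rest on a few counts in the mutants. The synthesis rows are red in pkl (11 of 12 called higher), and the turnover and output rows are mostly blue in the outer columns.

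In jasmonate synthesis, pkl was higher than WT at nearly every step measured. Of 12 tested synthesis genes 11 rose in pkl and none fell (median log2 change 0.67), 7 fell and none rose in the pif4-labelled libraries (median -0.29), and 5 rose and 5 fell in the pklpif4-labelled ones (median -0.04). In that order 91.7%, 58.3% and 83.3% were called, against 53.6%, 32.5% and 54.8% of all tested genes. LOX2 (AT3G45140; chromosome 3, 16525410 to 16529352), the main leaf lipoxygenase of the pathway, had 133, 137 and 137 CPM in the pklpif4-labelled libraries, 386, 391 and 386 in pkl, 59.7, 55.3 and 52.2 in the pif4-labelled ones and 129, 133 and 133 in WT. Its pkl values were the highest and its pif4-labelled values the lowest, and the pklpif4-labelled values lay at the WT level. The pklpif4-labelled libraries differed from WT by 0.04 ± 0.03 on the log2 scale (adjusted p = 0.203), while pkl was higher by 1.56 ± 0.03 and the pif4-labelled libraries changed by -1.24 ± 0.03.

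The cyclase genes AOC1, AOC2 and AOC3 lie side by side on chromosome 3 and AOC4 on chromosome 1. AOC2 (AT3G25770; chromosome 3, 9406873 to 9407955) had 29.0, 31.7 and 28.4 CPM in the pklpif4-labelled libraries, 75.3, 66.7 and 70.5 in pkl, 6.85, 7.27 and 6.87 in the pif4-labelled ones and 14.5, 12.9 and 14.6 in WT. All 4 groups were separate, pkl highest, then pklpif4-labelled, WT and pif4-labelled. AOC1 (chromosome 3, 9403883 to 9405250) had 9.71, 7.22 and 7.95 CPM in the pklpif4-labelled libraries, 17.2, 17.8 and 19.8 in pkl, 9.22, 10.1 and 8.88 in the pif4-labelled ones and 11.3, 12.3 and 10.4 in WT. AOC3 (chromosome 3, 9409290 to 9410567) had 6.02, 5.84 and 5.50 CPM in the pklpif4-labelled libraries, 7.59, 8.0003 and 9.04 in pkl, 4.21, 3.90 and 4.76 in the pif4-labelled ones and 3.74, 4.23 and 2.97 in WT. Each of these rose in pkl, by 0.69 ± 0.09 for AOC1, 2.34 ± 0.06 for AOC2 and 1.16 ± 0.14 for AOC3. In the pklpif4-labelled libraries AOC1 fell (-0.45 ± 0.10) where AOC2 (1.09 ± 0.06) and AOC3 (0.66 ± 0.14) rose. The pif4-labelled change was -0.998 ± 0.08 for AOC2 and -0.27 ± 0.10 for AOC1 (adjusted p = 0.0261), and the AOC1 call was lost without pif4 replicate 1 or 3 or WT replicate 1 or 2, at an adjusted p of 0.0766, 0.109, 0.0547 and 0.154, and with no TMM factors (adjusted p = 0.0589). AOC4 (chromosome 1, 4547454 to 4548875) had 23.0, 21.1 and 23.9 CPM in the pklpif4-labelled libraries, 21.6, 23.3 and 22.2 in pkl, 16.5, 17.7 and 15.6 in the pif4-labelled ones and 14.9, 18.5 and 12.7 in WT, and rose by 0.56 ± 0.08 in the pklpif4-labelled libraries and 0.54 ± 0.08 in pkl. The coding sequences of AOC1 and AOC2 are 90.3% identical in RefSeq and those of AOC3 are 82.4% and 82.2% identical to AOC1 and AOC2, so reads could have been split among them and their separate values are uncertain.

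LOX4 (AT1G72520; chromosome 1, 27308515 to 27312754), another lipoxygenase of the pathway, had 5.60, 5.15 and 4.17 CPM in the pklpif4-labelled libraries, 3.66, 4.05 and 3.19 in pkl, 0.685, 1.095 and 1.41 in the pif4-labelled ones and 2.55, 2.16 and 2.76 in WT. The pklpif4-labelled values were the highest of the 4 groups. LOX4 rose in the pklpif4-labelled libraries (1.00 ± 0.18) and in pkl (0.54 ± 0.19, adjusted p = 0.0104) and fell in the pif4-labelled ones (-1.24 ± 0.22). The pkl call was lost without pkl replicate 2 (0.46, adjusted p = 0.0586) or WT replicate 2 (0.46, adjusted p = 0.0581).

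The other synthesis genes changed less. LOX6 rose in the pklpif4-labelled libraries (0.46 ± 0.05) and pkl (0.65 ± 0.05) and changed by -0.08 ± 0.05 in the pif4-labelled ones (adjusted p = 0.275). LOX3 fell in the pklpif4-labelled libraries (-0.38 ± 0.12, adjusted p = 0.00675), a call lost without pklpif4 replicate 1 (-0.30, adjusted p = 0.059) or WT replicate 1 (-0.30, adjusted p = 0.0667) and on FPKM (adjusted p = 0.0571). It rose in pkl (0.31 ± 0.12, adjusted p = 0.0209), a call lost without pkl replicate 3 (0.24, adjusted p = 0.13) or WT replicate 3 (0.20, adjusted p = 0.195). AOS, whose product is the substrate of the cyclases, and ACX1, the first oxidase of peroxisomal chain shortening, both fell in the pklpif4-labelled libraries (-0.48 ± 0.06 and -0.13 ± 0.03) and in the pif4-labelled ones (-0.32 ± 0.05 and -0.41 ± 0.03) and rose in pkl (0.26 ± 0.05 and 0.77 ± 0.03). OPCL1 rose in pkl (0.73 ± 0.11) and fell in the pif4-labelled libraries (-0.43 ± 0.12). OPR3, the single synthesis gene tested that did not rise in pkl (0.04 ± 0.08, adjusted p = 0.703), fell in the pklpif4-labelled libraries (-0.80 ± 0.08) and had a change of -0.11 ± 0.08 in the pif4-labelled ones. DAD1, a lipase that frees linolenic acid in anthers, had 2 counts in 1 pkl library and 0 in the other 11.

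Per length, on the authors' deposited FPKM scale, LOX2 averaged 47.5 ± 0.91 FPKM in the pklpif4-labelled libraries, 140.2 ± 1.01 in pkl, 19.7 ± 1.34 in the pif4-labelled ones and 45.4 ± 0.71 in WT (SD, n = 3). ACX1 averaged 68.2 ± 1.47 FPKM in the pklpif4-labelled libraries, 131.7 ± 4.49 in pkl, 56.7 ± 1.17 in the pif4-labelled ones and 73.5 ± 1.45 in WT. LOX2 was above ACX1 in pkl and below it in the other 3 groups.

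JAR1 and JMT act on finished jasmonic acid. JAR1 (AT2G46370; chromosome 2, 19033741 to 19036659), the enzyme that makes the active isoleucine conjugate, had 57.0, 54.0 and 54.2 CPM in the pklpif4-labelled libraries, 49.0, 51.6 and 49.1 in pkl, 44.6, 45.2 and 46.9 in the pif4-labelled ones and 40.0, 42.6 and 41.7 in WT. Its 4 groups did not overlap, but the steps between them were small. It rose by 0.41 ± 0.05 in the pklpif4-labelled libraries, 0.27 ± 0.05 in pkl and 0.14 ± 0.05 in the pif4-labelled ones (adjusted p = 0.0173), and the last call was lost without WT replicate 1 (0.11, adjusted p = 0.119) or pif4 replicate 3 (0.12, adjusted p = 0.0877). JMT (AT1G19640; chromosome 1, 6788885 to 6791846), which makes volatile methyl jasmonate, was scarce, with 0.395, 0.082 and 0.156 CPM in the pklpif4-labelled libraries, 0.110, 0.189 and 0.093 in pkl, 0.171, 0.211 and 0.397 in the pif4-labelled ones and 0.723, 1.27 and 0.811 in WT. All 9 mutant values lay below all WT values, and the log2 changes were -2.12 ± 0.52 (pklpif4-labelled), -2.82 ± 0.56 (pkl) and -1.85 ± 0.51 (pif4-labelled). Without pklpif4 replicate 1, the highest of its group, the first of these was -2.97.

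**Figure D2:**
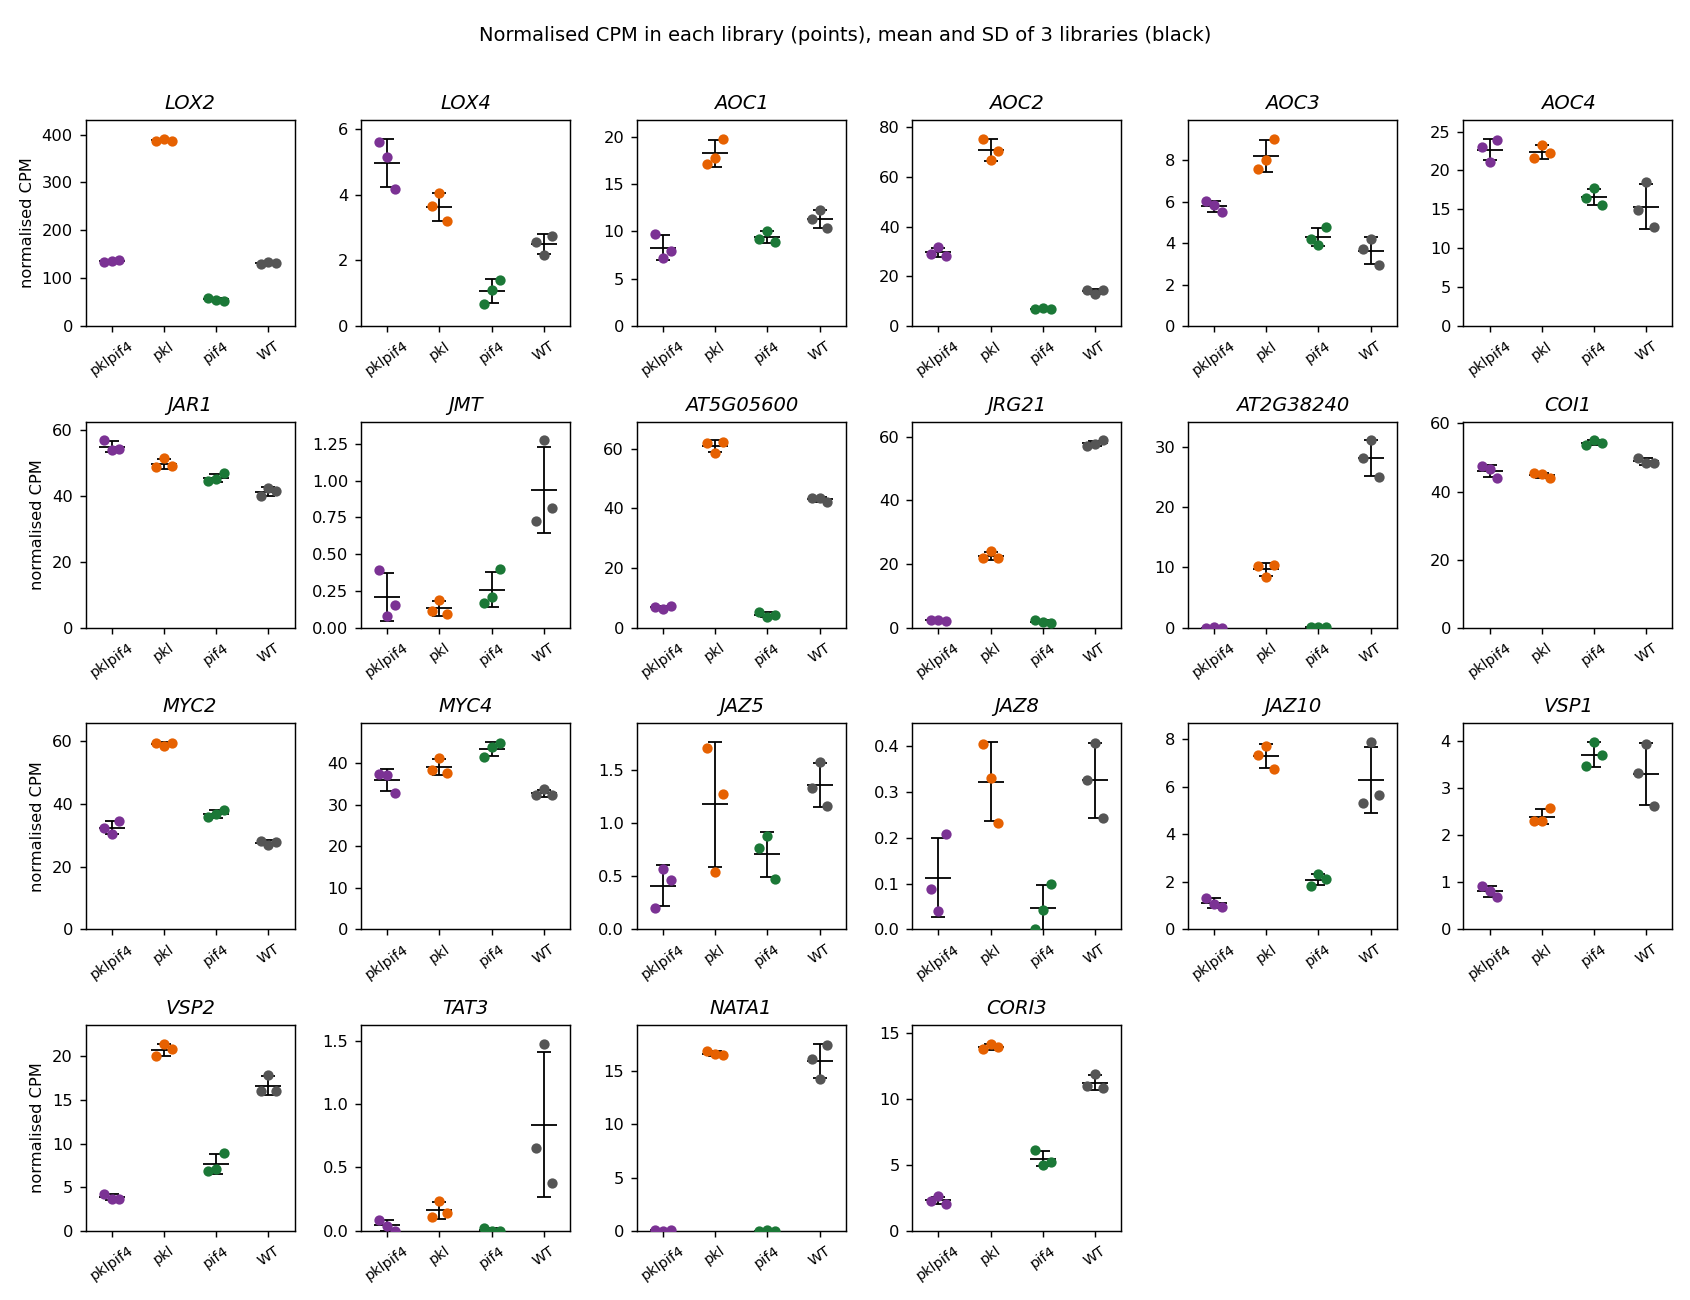
Normalised CPM (vertical axes, each from 0) of 22 jasmonate genes in every library. Points are the 3 libraries of a genotype and black marks their mean and SD. AT5G05600, JRG21, AT2G38240 and NATA1 lie near 0 in the pklpif4-labelled and pif4-labelled libraries, while LOX2 in the pklpif4-labelled libraries lies at the WT level.

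Of 8 turnover genes tested, 7 fell and 1 rose in the pklpif4-labelled libraries (median log2 change -1.63), 3 fell and 4 rose in pkl (median 0.08), and 7 fell and 1 rose in the pif4-labelled libraries (median -2.24). In that order 100%, 87.5% and 100% were called, against 54.8%, 53.6% and 32.5% of all tested genes. The 4 members listed as JOX genes are annotated in RefSeq as oxygenases that use oxoglutarate and iron, and their role in hydroxylating jasmonic acid comes from the choice of members. AT2G38240 (chromosome 2, 16012535 to 16014753) had 0, 4 and 0 counts in the pklpif4-labelled libraries and 8, 2 and 6 in the pif4-labelled ones, against 559, 355 and 447 counts in pkl and 1554, 1220 and 928 in WT. In CPM this was 0, 0.082 and 0 in the pklpif4-labelled libraries, 10.3, 8.40 and 10.4 in pkl, 0.171, 0.0421 and 0.149 in the pif4-labelled ones and 28.105, 31.1 and 25.1 in WT. The gene was nearly silent in both groups with the pif4 label and intermediate in pkl. The ratio was 933-fold lower in the pklpif4-labelled libraries than in WT (exact 95% binomial interval 258 to 7710, counting error only). This interval, like all such intervals here, was taken on halved counts. The log2 change was -1.53 ± 0.11 in pkl. In the pif4-labelled libraries it was -7.85 ± 0.20, and -8.22 to -7.43 when 1 library was left out. That SE is too small for a change resting on 8, 2 and 6 counts.

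JRG21 (AT3G55970; chromosome 3, 20766735 to 20769324) had 2.53, 2.563 and 2.09 CPM in the pklpif4-labelled libraries, 22.04, 24.1 and 21.8 in pkl, 2.48, 1.75 and 1.56 in the pif4-labelled ones and 57.1, 57.7 and 58.8 in WT. AT5G05600 (chromosome 5, 1672120 to 1674739) had 6.81, 6.40 and 7.19 CPM in the pklpif4-labelled libraries, 61.8, 58.7 and 62.1 in pkl, 5.20, 3.60 and 4.27 in the pif4-labelled ones and 43.5, 43.3 and 42.2 in WT. Both were far lower in the groups with the pif4 label, but in pkl JRG21 lay below WT and AT5G05600 above it. JRG21 changed by -4.59 ± 0.09 (pklpif4-labelled), -1.35 ± 0.07 (pkl) and -4.89 ± 0.09 (pif4-labelled), and AT5G05600 by -2.67 ± 0.07, 0.50 ± 0.06 and -3.30 ± 0.08 in the same order. AT3G11180 had 0 counts in the 3 pklpif4-labelled libraries, 4 in pkl, 4 in the pif4-labelled ones and 10 in WT, which is too few to compare. Among the JOX members the coding sequences are 61.6% to 78.8% identical.

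ST2A, which sulfates hydroxylated jasmonate, fell in all 3 mutants, with changes of -2.43 ± 0.09 in the pklpif4-labelled libraries, -0.51 ± 0.08 in pkl and -3.04 ± 0.09 in the pif4-labelled ones. IAR3 and ILL6, amidohydrolases that split jasmonate conjugates, fell in the pklpif4-labelled libraries (-0.48 ± 0.05 and -0.38 ± 0.05) and the pif4-labelled ones (-0.60 ± 0.05 and -0.85 ± 0.05) and rose in pkl (0.54 ± 0.04 and 0.48 ± 0.05). The oxidase genes of the CYP94 family parted. CYP94B3 fell in the pklpif4-labelled (-0.84 ± 0.21) and pif4-labelled libraries (-1.44 ± 0.22) and had a change of -0.31 ± 0.20 in pkl (adjusted p = 0.19). CYP94C1 was the turnover gene that rose in every mutant, to 3.20 ± 0.36 CPM in the pklpif4-labelled libraries, 3.97 ± 0.16 in pkl and 1.03 ± 0.24 in the pif4-labelled ones, against 0.590 ± 0.38 in WT (SD, n = 3). Its pif4-labelled call (0.86 ± 0.29, adjusted p = 0.016) was lost without WT replicate 1 (0.56, adjusted p = 0.19), WT replicate 2 (0.66, adjusted p = 0.107) or pif4 replicate 1 (0.71, adjusted p = 0.0939), and was 1.47 without WT replicate 3, the highest WT library, without which the other changes were 3.10 in the pklpif4-labelled libraries and 3.41 in pkl.

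The receptor and MYC genes changed by at most 1.09 on the log2 scale in any mutant. COI1 (AT2G39940; chromosome 2, 16672493 to 16675748) had 47.4, 46.7 and 44.0 CPM in the pklpif4-labelled libraries, 45.4, 45.02 and 44.0 in pkl, 53.8, 55.0 and 54.3 in the pif4-labelled ones and 49.97, 48.3 and 48.3 in WT. It rose slightly in the pif4-labelled libraries (0.15 ± 0.05), and its small fall in pkl (-0.13 ± 0.05, adjusted p = 0.0166) was lost without pkl replicate 3 (-0.11, adjusted p = 0.0575), without WT replicate 1 (-0.11, adjusted p = 0.0796) and when no TMM factors were applied (-0.06, adjusted p = 0.287). MYC2 (AT1G32640; chromosome 1, 11798810 to 11800988), the main activator of the pathway, had 32.4, 30.5 and 34.4 CPM in the pklpif4-labelled libraries, 59.4, 58.3 and 59.5 in pkl, 35.7, 36.8 and 38.1 in the pif4-labelled ones and 28.14, 26.9 and 27.9 in WT. All mutant values lay above WT, pkl farthest, with changes of 0.23 ± 0.05, 1.09 ± 0.05 and 0.41 ± 0.05 in the pklpif4-labelled, pkl and pif4-labelled libraries. MYC2 was higher in the pif4-labelled libraries, where 7 of 12 tested JAZ genes and 4 of 5 output genes were lower, against 16.2% of all tested genes.

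MYC4 (AT4G17880; chromosome 4, 9933366 to 9935586), a close relative of MYC2, had 37.5, 37.2 and 32.8 CPM in the pklpif4-labelled libraries, 38.2, 41.3 and 37.7 in pkl, 41.5, 43.9 and 44.7 in the pif4-labelled ones and 32.4, 33.7 and 32.2 in WT. It rose in pkl (0.25 ± 0.05) and the pif4-labelled libraries (0.40 ± 0.05), and its pklpif4-labelled values overlapped those of WT (0.13 ± 0.05, adjusted p = 0.0345), a call lost without pklpif4 replicate 1 (0.10, adjusted p = 0.175), pklpif4 replicate 2 (0.10, adjusted p = 0.158), WT replicate 1 (0.12, adjusted p = 0.0966) or WT replicate 3 (0.12, adjusted p = 0.0918). MYC3 changed by -0.04 ± 0.05, 0.13 ± 0.04 and 0.13 ± 0.05 in the pklpif4-labelled, pkl and pif4-labelled libraries. Its call in pkl was lost without pkl replicate 3 (0.08, adjusted p = 0.156) or WT replicate 2 (0.11, adjusted p = 0.0615), and its pif4-labelled call without pif4 replicate 2 (0.09, adjusted p = 0.201), WT replicate 1 (0.13, adjusted p = 0.0513) or WT replicate 2 (0.11, adjusted p = 0.0804).

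The JAZ repressor genes, themselves targets of MYC2, rose in 7 of 12 cases in pkl and fell in 1 (median log2 change 0.36). They fell in 8 cases and rose in 1 in the pklpif4-labelled libraries (median -0.38) and fell in 7 and rose in 1 in the pif4-labelled ones (median -0.46). Of the 12, 66.7% were called in pkl, 75% in the pklpif4-labelled libraries and 66.7% in the pif4-labelled ones. Of all tested genes 53.6%, 54.8% and 32.5% were called in the same order. JAZ10 (AT5G13220; chromosome 5, 4218888 to 4220883), a repressor with splice forms that resist destruction, had 1.32, 1.07 and 0.938 CPM in the pklpif4-labelled libraries, 7.36, 7.74 and 6.74 in pkl, 1.84, 2.34 and 2.11 in the pif4-labelled ones and 5.34, 7.89 and 5.67 in WT. The groups with the pif4 label lay below all others, and pkl overlapped WT. JAZ10 changed by -2.49 ± 0.18 (pklpif4-labelled) and -1.58 ± 0.17 (pif4-labelled), with 0.21 ± 0.15 in pkl (adjusted p = 0.225), which passed without WT replicate 2 (0.40, adjusted p = 0.039).

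JAZ8 (AT1G30135; chromosome 1, 10596492 to 10597239), a repressor that lacks the canonical degron, had 4, 2 and 8 counts in the pklpif4-labelled libraries, 22, 14 and 10 in pkl, 0, 2 and 4 in the pif4-labelled ones and 18, 16 and 9 in WT. It was 7.33-fold lower in the pif4-labelled libraries than in WT (exact 95% binomial interval 2.25 to 39.1), and its pklpif4-labelled change of -1.58 ± 0.69 (adjusted p = 0.0456) was lost in 10 of the 12 fits that each left out 1 library, of which the one without pklpif4 replicate 2 gave the smallest change (-1.16, adjusted p = 0.212) and the one without pklpif4 replicate 3 the largest (-2.31). The fitted pif4-labelled change of -2.79 ± 0.80 was -2.20 without pif4 replicate 1 and -3.78 without pif4 replicate 3. JAZ5 (AT1G17380; chromosome 1, 5955488 to 5957212) had 0.198, 0.574 and 0.469 CPM in the pklpif4-labelled libraries, 1.71, 0.544 and 1.28 in pkl, 0.770, 0.885 and 0.471 in the pif4-labelled ones and 1.34, 1.58 and 1.16 in WT. Its fall of -1.71 ± 0.38 in the pklpif4-labelled libraries put all 3 values below WT. The pif4-labelled change was -0.93 ± 0.36 (adjusted p = 0.0346), which was lost without pif4 replicate 1, pif4 replicate 3, WT replicate 1 or WT replicate 2, at an adjusted p of 0.06, 0.173, 0.0693 and 0.121.

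Of the other JAZ genes, JAZ1, JAZ2 and JAZ3 rose in pkl (1.38 ± 0.08, 0.83 ± 0.07 and 0.78 ± 0.07), while in the pklpif4-labelled libraries their changes were 0.06 ± 0.09, -0.01 ± 0.07 and -0.01 ± 0.08, none of which passed. JAZ6 fell in the pklpif4-labelled (-1.25 ± 0.07) and pif4-labelled libraries (-0.96 ± 0.07) and rose in pkl (0.51 ± 0.07). JAZ9 and JAZ12, the most abundant JAZ transcripts in WT at 64.1 and 63.3 FPKM, fell in the pklpif4-labelled libraries (-0.47 ± 0.04 and -0.29 ± 0.04) and rose slightly in pkl (0.12 ± 0.04 and 0.22 ± 0.04). The rise of JAZ9 was lost without WT replicate 3 (0.10, adjusted p = 0.0513). JAZ7 fell in the pklpif4-labelled libraries (-1.19 ± 0.32) and in the pif4-labelled ones (-0.95 ± 0.31), the second without passing when WT replicate 1 was left out (-0.67, adjusted p = 0.17). JAZ4 rose in pkl (1.05 ± 0.24) and the pif4-labelled libraries (1.29 ± 0.24), and in the pklpif4-labelled ones its rise (0.71 ± 0.25) was lost without pklpif4 replicate 2 (0.48, adjusted p = 0.151) or WT replicate 3 (0.46, adjusted p = 0.132). JAZ11 fell in pkl (-0.43 ± 0.11) and the pif4-labelled libraries (-0.49 ± 0.11), and its pklpif4-labelled change (-0.27 ± 0.11, adjusted p = 0.0308) was lost without pklpif4 replicate 2 or 3 or WT replicate 1 or 3, at an adjusted p of 0.0532, 0.16, 0.146 and 0.0538. AT3G22275, annotated as a jasmonate ZIM-domain protein, had 2 counts in the pklpif4-labelled libraries, 0 in pkl, 0 in the pif4-labelled ones and 11 in WT. JAZ12 overlaps AT5G20910 on the other strand by 28 bases and COI1 overlaps AT2G39930 by 2 bases. The sources used here give no strand setting for the counting, so reads in those bases cannot be assigned.

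All 5 tested output genes fell in the pklpif4-labelled libraries (median log2 change -2.27), 4 of 5 fell in the pif4-labelled libraries (median -1.12), and 2 rose and 2 fell in pkl (median 0.06). In that order 100%, 80% and 80% were called, against 54.8%, 32.5% and 53.6% of all tested genes. NATA1 (AT2G39030; chromosome 2, 16298227 to 16299202), which acetylates ornithine in defence, had 6, 0 and 2 counts in the pklpif4-labelled libraries and 0, 3 and 0 in the pif4-labelled ones, against 918, 700 and 709 in pkl and 895, 562 and 647 in WT. In CPM pkl had 16.9, 16.6 and 16.5 and WT had 16.2, 14.3 and 17.5, so pkl and WT overlapped (0.06 ± 0.11, adjusted p = 0.673). The level was 717-fold lower in the pif4-labelled libraries than in WT (exact 95% binomial interval 149 to 4450), and the pklpif4-labelled change was -7.99 ± 0.24, or -9.28 without pklpif4 replicate 1 and -7.35 without pklpif4 replicate 2. All 3 counts of the pif4-labelled libraries came from replicate 2.

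VSP1 and VSP2 encode vegetative storage proteins and are used as jasmonate markers. VSP2 (AT5G24770; chromosome 5, 8500476 to 8502224) had 4.24, 3.69 and 3.65 CPM in the pklpif4-labelled libraries, 20.1, 21.4 and 20.8 in pkl, 6.91, 7.14 and 8.93 in the pif4-labelled ones and 16.0, 17.9 and 16.0 in WT. VSP1 (AT5G24780; chromosome 5, 8507590 to 8508957) had 0.923, 0.820 and 0.678 CPM in the pklpif4-labelled libraries, 2.30, 2.30 and 2.58 in pkl, 3.47, 3.98 and 3.70 in the pif4-labelled ones and 3.33, 3.95 and 2.62 in WT. Both were lowest in the pklpif4-labelled libraries, while VSP2 was also low in the pif4-labelled ones and VSP1 there overlapped WT. The pklpif4-labelled change was -2.10 ± 0.10 for VSP2 and -2.02 ± 0.22 for VSP1, and the pif4-labelled change -1.12 ± 0.10 for VSP2 and 0.17 ± 0.19 for VSP1 (adjusted p = 0.549). In pkl VSP2 rose by 0.32 ± 0.09, and the VSP1 change of -0.47 ± 0.20 (adjusted p = 0.0379) was lost without pkl replicate 1, pkl replicate 2, WT replicate 1 or WT replicate 2, at an adjusted p of 0.0949, 0.0879, 0.079 and 0.217, and with library totals (adjusted p = 0.0781). Their coding sequences are 89.5% identical, so reads could have been split between them and the separate values are uncertain.

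CORI3 (AT4G23600; chromosome 4, 12310619 to 12313212), a cystine lyase induced by jasmonate, had 2.28, 2.62 and 2.06 CPM in the pklpif4-labelled libraries, 13.8, 14.2 and 13.97 in pkl, 6.16, 5.03 and 5.26 in the pif4-labelled ones and 10.996, 11.9 and 10.9 in WT. Its 4 groups were separate, with changes of -2.27 ± 0.13, 0.31 ± 0.10 and -1.03 ± 0.11 in the pklpif4-labelled, pkl and pif4-labelled libraries. TAT3 (AT2G24850; chromosome 2, 10582830 to 10585216), a tyrosine aminotransferase induced by wounding, had 4, 2 and 0 counts in the pklpif4-labelled libraries, 6, 10 and 6 in pkl, 1, 0 and 0 in the pif4-labelled ones and 36, 58 and 14 in WT. All mutant counts lay below WT, where replicate 2 was the highest at 1.48 CPM, against 0.651 and 0.378 CPM in WT replicates 1 and 3. TAT3 was 18.1-fold lower in the pklpif4-labelled libraries (exact 95% binomial interval 5.89 to 90.7) and 110-fold lower in the pif4-labelled ones (9.5 to 2220), and the change in pkl was -2.37 ± 0.58, or -1.70 without WT replicate 2. Without that library the fitted changes were -3.47 in the pklpif4-labelled libraries (against -4.13 ± 0.72 with it, and -5.03 without pklpif4 replicate 1) and -5.69 in the pif4-labelled ones (against -6.35 ± 0.94 with it, and -8.22 without pif4 replicate 1).

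Of the 46 members 9 lie on chromosome 2, which also carries PKL and PIF4. NATA1 lies 1.59 Mb and AT2G38240 1.87 Mb from PIF4, COI1 1.21 Mb and JAR1 1.14 Mb, and the last 2 had pif4-labelled changes of 0.15 and 0.14. TAT3, with a pif4-labelled change of -6.35, lies 7.3 Mb from PIF4 and 0.129 Mb from PKL. CYP94C1 lies 1.09 Mb from PKL. JRG21, AT5G05600 and ST2A, which also fell by more than 3 on the log2 scale in the pif4-labelled libraries, lie on chromosomes 3, 5 and 5. An effect of the mutation and one of linked differences between the plants cannot be told apart here.

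Set against pkl, the pklpif4-labelled libraries were lower for most of the members. Of 43 members 32 fell and 2 rose, where 39.9% of all tested genes were called (20.5% lower and 19.5% higher), and 17 fell and 0 rose at least 2-fold, against 3.59% and 2.78% of all genes. The median log2 change was -0.86. Synthesis genes fell in 10 of 12 cases, turnover genes in 7 of 8, JAZ genes in 9 of 12, output genes in 4 of 5 and receptor and MYC genes in 2 of 4. Of the 2 conjugation and methylation genes none fell and 1 rose. LOX2 changed by -1.51 ± 0.03, JAZ10 by -2.71 ± 0.18, AT5G05600 by -3.17 ± 0.07 and NATA1 by -8.04 ± 0.24 (-9.34 without pklpif4 replicate 1 and -7.41 without pklpif4 replicate 2). AT2G38240 was 323-fold lower (exact 95% binomial interval 89.2 to 2680). The 2 that rose were LOX4 (0.46 ± 0.18, adjusted p = 0.0316) and JAR1 (0.14 ± 0.05, adjusted p = 0.00889), and neither passed with library totals (0.41, adjusted p = 0.0559, and 0.10, adjusted p = 0.093) or without pklpif4 replicate 1 (0.36, adjusted p = 0.167, and 0.12, adjusted p = 0.0691). LOX4 was also lost without pklpif4 replicate 2 or pkl replicate 1 or 3, at an adjusted p of 0.0919, 0.0665 and 0.141. With library totals, where the median of all genes in this comparison was -0.04, 34 members fell and 0 rose. Without TMM factors, the share of higher calls among all called genes was 37.4%, against 48.8% with them. The same share among all genes was 62.0% against 50.5% for pkl against WT, where 28 members rose and 6 fell with library totals, and 61.2% against 50% for the pif4-labelled libraries against WT, where 8 rose and 25 fell. For the difference in the effect of pkl between the backgrounds it was 31.1% against 48.1%, where 7 members were above 0 and 27 below.

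Of the 32 members lower in the pklpif4-labelled libraries than in pkl, 21 also fell in the pif4-labelled libraries against WT, and these are 21 of the 26 that fell there. As shares this is 65.6% and 80.8%, against 38.8% and 48.9% of all tested genes called lower in each comparison. Lower calls were common among the 43 members in both comparisons (32 and 26), against 20.5% and 16.2% of all tested genes. A large overlap follows in part from those counts, and an overlap beyond them was not tested. These 2 comparisons have no library in common. LOX2, AOC2, AT5G05600, JRG21, JAZ6, JAZ10, VSP2, CORI3 and NATA1 were among them.

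Set against the pif4-labelled libraries, the pklpif4-labelled ones had 16 members higher and 16 lower, where 50.2% of all tested genes were called (25.5% higher, 24.7% lower). At least 2-fold, 4 were higher and 3 lower, against 5.69% and 3.66% of all genes. Synthesis genes rose in 8 of 12 cases and turnover genes in 6 of 8. All 4 receptor and MYC genes fell, as did 5 of 12 JAZ genes and 3 of 5 output genes. AOC2 rose by 2.09 ± 0.07, LOX4 by 2.24 ± 0.20, LOX2 by 1.28 ± 0.03 and CYP94C1 by 1.64 ± 0.24. VSP1 changed by -2.19 ± 0.22, CORI3 by -1.23 ± 0.13 and VSP2 by -0.98 ± 0.11. Of the 16 that rose here 14 also rose in pkl against WT (14 of 28 there). That is 87.5% of the 16 and 50% of the 28, against 58.6% and 55.1% of all genes called so. Of the 16 that fell 11 rose in pkl against WT (11 of 28 there). That is 68.8% of the 16 and 39.3% of the 28, against 9.5% and 8.66% of all genes called so. In pkl against WT 28 of the 43 members rose, against 27.1% of all tested genes, so these shares follow in part from that count. AT2G38240 (-1.89 ± 0.74, adjusted p = 0.0269) rests on 4 counts against 16, a ratio 3.94-fold lower. The exact interval of that ratio, taken on halved counts (0.787 to 38.1), held 1. No interval was computed on the undivided counts. Its call was lost without pklpif4 replicate 1 (-1.32, adjusted p = 0.152), pklpif4 replicate 3 (-1.43, adjusted p = 0.117), pif4 replicate 1 (-1.51, adjusted p = 0.153) or pif4 replicate 3 (-1.73, adjusted p = 0.0814), with halved counts (adjusted p = 0.108) and on FPKM (adjusted p = 0.458). Without pklpif4 replicate 2, which held all 4 counts, the fitted change was -5.44. Set against the pif4-labelled libraries, pkl had 33 members higher and 3 lower, where 53.4% of all genes were called (27% higher, 26.3% lower). COI1, MYC4 and VSP1 were the 3 lower ones. MYC4 (-0.15, adjusted p = 0.0117) was lost without pkl replicate 1 (-0.14, adjusted p = 0.0508), pkl replicate 3 (-0.13, adjusted p = 0.0648) or pif4 replicate 3 (-0.13, adjusted p = 0.0595) and on FPKM (adjusted p = 0.0994). At least 2-fold 22 members were higher in pkl and 0 lower, against 6.06% and 2.94% of all genes.

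The effect of pkl differed between the backgrounds for most members. For each gene, the log2 change of pkl against WT was subtracted from that of the pklpif4-labelled against the pif4-labelled libraries. It was above 0 for 7 members and below 0 for 25 at an adjusted p under 0.05, where 31.9% of all tested genes were called (15.3% above and 16.5% below). At least 2-fold, 5 were above and 7 below, against 2.81% and 5.01% of all genes. Synthesis genes were below 0 in 9 of 12 cases, JAZ genes in 8 of 12, MYC genes in 3 of 3 and output genes in 3 of 5. MYC2 rose by 1.09 ± 0.05 in pkl against WT and changed by -0.19 ± 0.05 in the pklpif4-labelled against the pif4-labelled libraries, a difference of -1.28 ± 0.07 (adjusted p = 5.73e-30). For VSP1 the difference was -1.72 ± 0.30, for CORI3 -1.54 ± 0.17, for VSP2 -1.30 ± 0.14 and for JAZ10 -1.13 ± 0.25. For OPR3 it was -0.74 ± 0.12, with single-mutant changes near 0 in both pkl and the pif4-labelled libraries.

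For LOX2 and AOC2 the difference was small, at -0.28 ± 0.04 and -0.26 ± 0.10, next to effects of pkl of 1.28 and 2.09 in the pif4-labelled background and 1.56 and 2.34 in WT. The AOC2 difference (adjusted p = 0.0309) was lost without pklpif4 replicate 1 or 3, pkl replicate 1, pif4 replicate 2 or WT replicate 2, at an adjusted p of 0.0671, 0.0804, 0.123, 0.0994 and 0.12. The members above 0 were LOX4 (1.69 ± 0.28), JRG21 (1.66 ± 0.15), ST2A (1.12 ± 0.13), CYP94B3 (0.90 ± 0.30), JAZ11 (0.64 ± 0.16), JMT (2.55 ± 0.83) and TAT3 (4.59 ± 1.64). JMT and TAT3 rest on few counts and were lost without pklpif4 replicate 1 (1.70, adjusted p = 0.214, and 3.69, adjusted p = 0.225). TAT3 was also lost without pif4 replicate 2 (4.11, adjusted p = 0.062), pif4 replicate 3 (4.20, adjusted p = 0.0548) or WT replicate 2 (3.93, adjusted p = 0.0772) and was 6.46 without pif4 replicate 1, and CYP94B3 was lost without pif4 replicate 1 (0.75, adjusted p = 0.0597) or WT replicate 1 (0.80, adjusted p = 0.053). For JAR1 the difference was 0.00 ± 0.07 (adjusted p = 0.977), for ILL6 -0.01 ± 0.07 (adjusted p = 0.935) and for AT5G05600 0.14 ± 0.11 (adjusted p = 0.377). The last passed without pif4 replicate 1 (0.29, adjusted p = 0.0494), and the difference for NATA1 (1.27 ± 0.92, adjusted p = 0.317) passed without pif4 replicate 2 (4.44, adjusted p = 0.0358), whose 3 counts were the only ones of that group. LOX6 (-0.12 ± 0.07, adjusted p = 0.217) and COI1 (-0.11 ± 0.07, adjusted p = 0.197) passed only with no TMM factors, for LOX6, and with that setting or the FPKM values, for COI1.

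**Figure D3:**
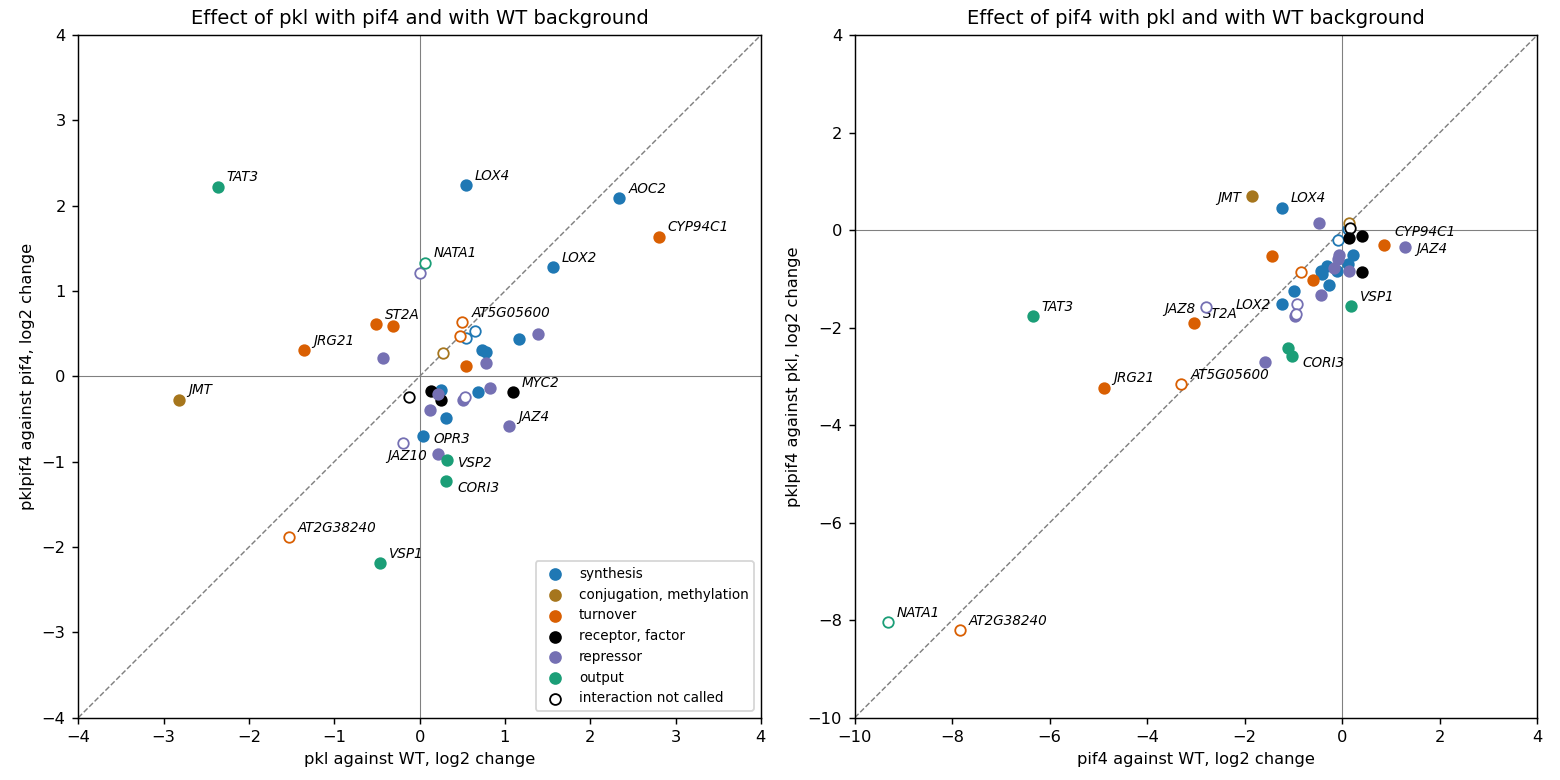
Log2 change of the 43 tested members in one background (horizontal axis) and in the other (vertical axis), with the dashed line marking equal effects. The left panel sets pkl against WT (horizontal) beside pklpif4-labelled against pif4-labelled (vertical), the right panel pif4-labelled against WT (horizontal) beside pklpif4-labelled against pkl (vertical); colours give the step and open points the 11 members whose difference was not called. Most points lie below the line in the left panel, and NATA1, AT2G38240 and AT5G05600 lie far down near the line in the right panel.

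Beyond the members, 33 other genes of jasmonate metabolism and signalling were examined. Of 15 other synthesis genes, for desaturation, transport and beta-oxidation, 4 rose and 6 fell in the pklpif4-labelled libraries, 4 rose and 6 fell in pkl, and 1 rose and 9 fell in the pif4-labelled ones. Each time 66.7% of the 15 were called, against 54.8%, 53.6% and 32.5% of all tested genes in the same order of groups. OPR1, a reductase related to OPR3, rose in the pklpif4-labelled libraries (1.24 ± 0.05) and pkl (1.14 ± 0.05). MFP2, a beta-oxidation enzyme, rose in the pklpif4-labelled libraries (0.64 ± 0.03). FAD8, a plastid desaturase, fell in pkl (-0.90 ± 0.07), and HPL1, a hydroperoxide lyase that competes for the lipoxygenase product, fell in the pklpif4-labelled libraries (-0.77 ± 0.19) and pkl (-1.24 ± 0.20). In the pif4-labelled libraries KAT2 (-0.71 ± 0.02), AIM1 (-0.38 ± 0.03) and ACX5 (-0.27 ± 0.06), also of beta-oxidation, were the largest changes.

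Of 18 other signalling genes 13 were tested, and 2 rose and 5 fell in the pklpif4-labelled libraries, 6 rose and none fell in pkl, and 1 rose and 4 fell in the pif4-labelled ones. The shares called, 53.8%, 46.2% and 38.5% of the 13, were near those of all tested genes (54.8%, 53.6% and 32.5%). NAC019, a transcription factor downstream of MYC2, had 0.286, 0.123 and 0.104 CPM in the pklpif4-labelled libraries, 2.85, 2.46 and 2.16 in pkl, 0.428, 0.337 and 0.397 in the pif4-labelled ones and 3.35, 3.13 and 2.95 in WT. It changed by -4.16 ± 0.33 (pklpif4-labelled) and -3.02 ± 0.29 (pif4-labelled), and its change in pkl was -0.33 ± 0.24 (adjusted p = 0.235). The related NAC055 fell in the pklpif4-labelled libraries (-0.85 ± 0.13) and rose in pkl (0.82 ± 0.11). The bHLH repressor genes JAM1 and JAM2 fell in the pif4-labelled libraries (-0.43 ± 0.07 and -0.50 ± 0.06), and JAM1 fell in the pklpif4-labelled ones (-0.68 ± 0.07). ILR1, an amidohydrolase, rose in pkl (0.53 ± 0.09) and fell in the pif4-labelled libraries (-0.45 ± 0.10). ORA59, an ethylene and jasmonate response factor, rose in pkl (1.61 ± 0.54) at under 1 CPM. MYB24 had 0 counts in every library, and PDF1.2A had 10 counts in pkl and 0 in the other groups.

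Genes of touch and early wounding, markers of root and markers of green tissue were also examined. Of 10 touch and early wound genes 4 rose and 1 fell in the pklpif4-labelled libraries, 6 rose and none fell in pkl, and none rose and 5 fell in the pif4-labelled ones. The shares called were 50%, 60% and 50%, against 54.8%, 53.6% and 32.5% of all tested genes. In the first 2 of these comparisons the share was near that of all genes. Their summed level was 240.1 to 247.5 CPM in the pklpif4-labelled libraries, 283.5 to 290.7 in pkl, 122.1 to 126.2 in the pif4-labelled ones and 187.5 to 191.6 in WT. TCH3, a calmodulin-like gene raised by touch, had changes of 1.12 ± 0.05, 1.26 ± 0.05 and -0.99 ± 0.05 in the pklpif4-labelled, pkl and pif4-labelled libraries. None of the 10 had a group at 0 counts.

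Of 15 root markers 13 were tested, of which 9 rose and 3 fell in the pklpif4-labelled libraries, 8 rose and 2 fell in pkl, and 12 rose in the pif4-labelled ones. The shares called were 92.3%, 76.9% and 92.3%, against 54.8%, 53.6% and 32.5% of all tested genes. Their summed level was 172.5 to 180.9 CPM in the pklpif4-labelled libraries, 216.7 to 221.8 in pkl, 229.5 to 240.5 in the pif4-labelled ones and 141.2 to 150.0 in WT. The iron-uptake genes IRT1 and FRO2 are among them. IRT1 averaged 3.35 CPM in the pklpif4-labelled libraries, 16.6 in pkl, 50.1 in the pif4-labelled ones and 14.6 in WT, and FRO2 averaged 4.07, 10.03, 26.02 and 6.96 CPM in the same order of groups. Both lay below WT in the pklpif4-labelled libraries, unlike most root markers. The median log2 change of the 13 there was 0.86 (-2.13 to 3.11). NRT2.1 had 9 counts in the pklpif4-labelled libraries, 0 in pkl, 2 in the pif4-labelled ones and 2 in WT. Of 15 photosystem and Rubisco genes 8 rose and 3 fell in the pklpif4-labelled libraries, none rose and 15 fell in pkl, and 1 rose and 13 fell in the pif4-labelled ones. Here the shares called were 73.3%, 100% and 93.3%. Their summed level was 53430 to 54730 CPM in the pklpif4-labelled libraries, 36800 to 37780 in pkl, 43850 to 44220 in the pif4-labelled ones and 49670 to 50450 in WT. Both organs were therefore present in every library. The part of the organs' shares or of handling at harvest in the changes of the jasmonate genes was not tested.

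**Figure D4:**
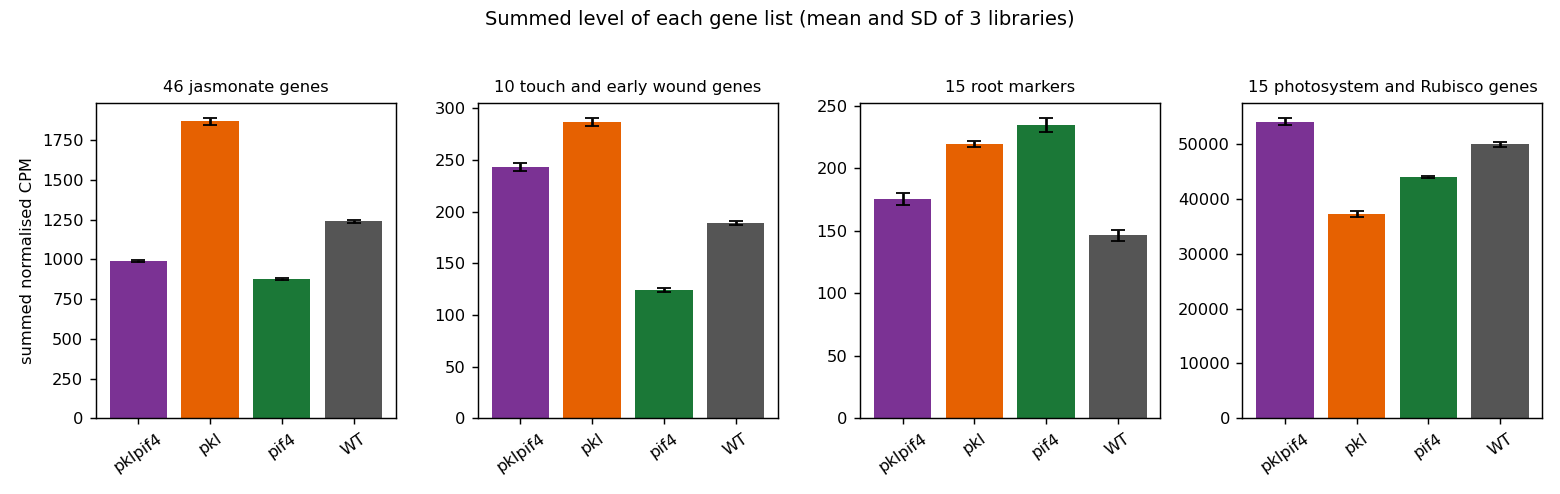
Summed normalised CPM (vertical axes, each from 0) of the 46 jasmonate genes and of 3 marker lists in each genotype. Bars are means and error bars SDs of 3 libraries. The jasmonate sum is weighted to abundant genes such as LOX2 and ACX1. The jasmonate sum is highest in pkl and lowest in the pif4-labelled libraries, as is the touch and early wound sum, while the photosystem sum is lowest in pkl. The root sum includes IRT1 at 3.35 CPM in the pklpif4-labelled libraries, 50.1 in the pif4-labelled ones and 14.6 in WT. In the pklpif4-labelled libraries 9 of 13 tested root markers rose and 3 fell.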

How the data were processed

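Gene-level counts were analysed for 12 libraries (3 labelled biological replicates of 4 genotypes). The submitters' processing notes name the genome TAIR10 and the programs HISAT2 2.1.0, SAMtools 1.6 and fastp; the counting program is not given in the labels. The deposited counts are whole numbers that the authors had not normalised, with 37762216 to 56492669 per library. Between 70.9% and 74.3% of values from 1 to 8 were even, against 49.9% of values over 100, so a pair of reads may have been counted as 2. The FPKM values are the authors' deposited ones, scaled to exon length and library total. Tables named for red light held values identical to those used (0 of 403344 differed), so their 24 columns, and the 12 libraries labelled for red light, were not analysed here.

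Counts were fitted with edgeR 4.0.16 (limma 3.58.1, R 4.3.3) in one model of the 4 genotypes: filterByExpr (minimum count 10, minimum total 15), TMM factors, robust quasi-likelihood fits, and Benjamini-Hochberg adjustment over 22130 genes in each comparison, called at 0.05. Standard errors (SE) were the log2 change divided by the square root of F. Such an SE is too small for a large change that rests on a few counts, as in AT2G38240 and NATA1. CPM are counts divided by the product of library total and TMM factor. Groups with at most 6 counts over their libraries were given as ratios with exact 95% binomial intervals, which cover counting error only. For the intervals the summed counts were halved and rounded up, since a pair of reads may have been counted as 2. The ratios themselves used the undivided counts. The p-values judge each difference between genotypes against the spread between the labelled replicates, as estimated by the fit. In simulated counts with pkl-against-WT changes, 49 of 50 genes at 2-fold higher and 50 of 50 at 4-fold higher were recovered. The changed genes all had an expected count over 50 per library, and far fewer genes were changed than were called in the data. Recovery of scarcer genes, or of falls as deep as those of AT2G38240 and NATA1, was not tested.

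The members and lists were chosen with earlier results of these data known. Values per library were given for the 3 largest changes against WT in each step, for JAR1, COI1 and MYC2, and for the AOC, JOX and VSP families. Of the lists of other synthesis and signalling genes, the 3 largest called changes per mutant were named, and of the marker lists counts, sums and 1 or 2 examples. NRT2.1 and the genes at 0 counts were named after their values were seen. Replicate numbers did not pair the libraries: 18 correlations of deviations lay between -0.027 and 0.02. Alternatives were RLE factors, library totals, DESeq2 1.42.0, no filter, a mean of at least 5 CPM, halved counts, limma-trend on log2(FPKM + 1), the replicate block, and leaving out each library.

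Promoter windows were read with Biopython 1.88 from the RefSeq genome TAIR10.1. All 27996 genes matched by identifier lay on the same chromosome and overlapped their deposited spans, 6029 of them with the same start and end. Among the 46 members 1 had the same start and end.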

Additional observations from a re-analysis of the deposited data

Results flagged for a closer look

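For 32 of the 43 tested members the log2 change between the pklpif4-labelled and the pif4-labelled libraries differed from that between pkl and WT, by the interaction term of the edgeR model at an adjusted p under 0.05. Such terms were called for 31.9% of all tested genes. In synthesis the differences were -0.28 for LOX2, -0.80 for LOX3, 1.69 for LOX4, -0.42 for AOS, -0.87 for AOC1, -0.26 for AOC2, -0.73 for AOC3, -0.74 for OPR3, -0.42 for OPCL1 and -0.49 for ACX1. For JMT the difference was 2.55. Among turnover genes it was 0.90 for CYP94B3, -1.17 for CYP94C1, -0.42 for IAR3, 1.66 for JRG21 and 1.12 for ST2A.

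The MYC genes had differences of -1.28 (MYC2), -0.30 (MYC3) and -0.53 (MYC4). In the JAZ family they were -0.89 for JAZ1, -0.97 for JAZ2, -0.62 for JAZ3, -1.63 for JAZ4, -0.79 for JAZ6, -0.51 for JAZ9, -1.13 for JAZ10, 0.64 for JAZ11 and -0.43 for JAZ12. Output genes had -1.72 for VSP1, -1.30 for VSP2, 4.59 for TAT3 and -1.54 for CORI3.

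Among genes not yet given with their losses, OPCL1 did not pass without pklpif4 replicate 3 (-0.33, adjusted p = 0.13), pkl replicate 1 (adjusted p = 0.0715), pkl replicate 3 (adjusted p = 0.0694), pif4 replicate 2 (adjusted p = 0.126) or WT replicate 2 (adjusted p = 0.127). CYP94C1 did not pass without WT replicate 1 (-0.87, adjusted p = 0.0681), and its difference was -1.77 without WT replicate 3.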

How the results depend on the processing

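Of 5929 log2 changes of members (301 results under 20 alternatives), 5761 kept their direction and their side of the threshold, 130 no longer passed, 37 newly passed and 1 reversed. That one was the difference of the pkl effect for AT2G38240, which was 1.26 (adjusted p = 4.32e-06) on log2(FPKM + 1) against -0.36 on counts, where it was -3.91 (without pklpif4 replicate 2) to 0.21 (without pklpif4 replicate 1) when 1 library was left out. The cause was not tested. With a mean of at least 5 CPM, where fewer genes were tested and the scarcer members got no value, 5 members fell in pkl against WT (8 with the usual filter), 1 rose in the pklpif4-labelled libraries against pkl (2 with it), and 3 differences of the pkl effect were above 0 (7 with it). The count of members higher in the pklpif4-labelled libraries than in pkl was 0 with library totals, 1 with DESeq2 and 0 with FPKM, and 0 (without pklpif4 replicate 1) to 2 when 1 library was left out. The count of members higher in the pif4-labelled libraries than in WT was 4 (without WT replicate 1) to 7 when 1 library was left out, and 8 with library totals. With the replicate block 1 call was lost, JAZ8 in the pklpif4-labelled libraries against WT (-1.60, adjusted p = 0.0548), and no other call of the members changed; the numbers do not pair the libraries. The depth limits AT3G11180, AT3G22275, DAD1, TAT3, JAZ8 and JMT, whose changes rest on a few counts.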
